A study of Rattus norvegicus with 12 samples.

Results

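Rat hepatocytes exposed to triclosan were compared with rat hepatocytes exposed to 1-chloro-3-(4-chlorophenoxy) benzene, abbreviated CCPB here, on 6 of the 12 microarrays of the series. The members were the 3 arrays labelled triclosan and the 3 arrays labelled CCPB, chosen by those labels. The cells were primary hepatocytes from male Sprague Dawley rats, thawed from cryopreserved stock and cultured for 24 h. Each compound was then applied at 30 µM for a further 24 h, so dose and time were matched. The other 6 arrays held cells given the vehicle DMSO (3) or 30 µM diclosan (3) for the same time. They entered the fit for its estimate of the spread and were used as a reference. The labels call the 3 arrays of a group independent experiments and do not say whether these used different rats, so p-values measure only the spread between these samples. The series was deposited as a read-across study, which asks whether a compound can stand in for a structurally similar one.

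Both compounds are chlorinated diphenyl ethers. Triclosan, an antibacterial agent, carries a phenolic hydroxyl group and an additional chlorine atom, and CCPB lacks the hydroxyl group and has a chlorine of one ring in the meta position where triclosan has it para to the oxygen bridge. This is 1 pair of compounds that differs in several features of structure at once, so no difference below can be assigned to one of them. Hepatocytes sense foreign compounds through nuclear receptors such as CAR (Nr1i3) and PXR (Nr1i2) and through the aryl hydrocarbon receptor (AhR). These switch on cytochrome P450 enzymes, which oxidise the compound, and conjugating enzymes and transporters, which make it soluble and export it. Hepatocytes rarely divide in the adult liver, but cultured rat hepatocytes can re-enter the cell cycle, which brings up genes of DNA replication and mitosis.

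The groups did not share a slide. All DMSO and triclosan arrays were on slide 1 together with diclosan replicates 1 and 2. Slide 2 carried the CCPB arrays and the remaining diclosan array, replicate 3, and the arrays of a slide were also scanned together. Between 51.7% and 55.6% of probes were well above background on an array, and no spot was saturated. On the first principal component, which took 40.5% of the variance, the slide 1 arrays scored from -14.9 to -6.12. CCPB scored from 24.5 to 27.2, and diclosan replicate 3, with a score of 12.9, fell between these sets. No within-slide value of triclosan against CCPB exists, so results are given from the fit of all 12 arrays by group and again with the slide as a fixed term. The slide term rests on 3 arrays, diclosan replicate 3 against diclosan replicates 1 and 2. That gap is called the slide gap below. As a check of the label, 42 of 43 listed hepatocyte genes passed the filter on dim probes, and albumin (Alb) was level in both groups, at 8.41, 8.38 and 8.32 with triclosan and 8.43, 8.38 and 8.38 with CCPB. A level here is the log2 signal minus the 75th percentile of its array, so a difference of 1 between levels is a 2-fold change.

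Of 20373 transcripts tested, 4171 (20.5%) differed between triclosan and CCPB at a limma adjusted p under 0.05, which is what "called" means below. With triclosan 1953 (9.59%) were higher and 2218 (10.9%) were lower, and 39 and 74 of these reached 2-fold. Higher calls made up 46.8% of them, and 35.7% of the 2392 calls made when arrays were centred on their medians instead. Leaving out triclosan replicate 2 or 3 or any 1 CCPB array cut the count to between 2094 and 2316. Adding the slide term left 285 called transcripts (1.4%), 155 higher (0.761%) and 130 lower (0.638%). This smaller count fell to 24 without diclosan replicate 2 and to 30 without diclosan replicate 1. It was 38 without CCPB replicate 2, 84 and 86 without CCPB replicates 3 and 1, 56 and 64 without triclosan replicates 2 and 3, and 143 to 176 without 1 DMSO array. Calls made in 1 direction by both fits numbered 232 (1.14%), 115 higher and 117 lower with triclosan, and 152 of them had a gene symbol.

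Both the differences and their precision changed with the slide term. The median half-width of a 95% interval widened from 0.145 to 0.233 log2 units, and 88.9% of the 4171 called transcripts kept their sign while 463 turned. The slide gap ran in the direction of the CCPB side of the difference for 65.7% of all transcripts. That share was 76.9% for transcripts called without the slide term only and 30.6% for those called by both fits. Over all transcripts the median absolute difference without the slide term was 0.114. The transcripts called by both fits had a median absolute difference of 0.523 and a median absolute slide gap of 0.103. The 3939 called without the slide term only had 0.28 and 0.112, and the median absolute slide gap over all transcripts was 0.106. The difference with the slide term is the difference without it plus the slide gap, so which transcripts keep a call depends on that gap by construction. Slide and compound cannot be told apart for a transcript called by the fit without the slide term alone.

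**Figure D1:**
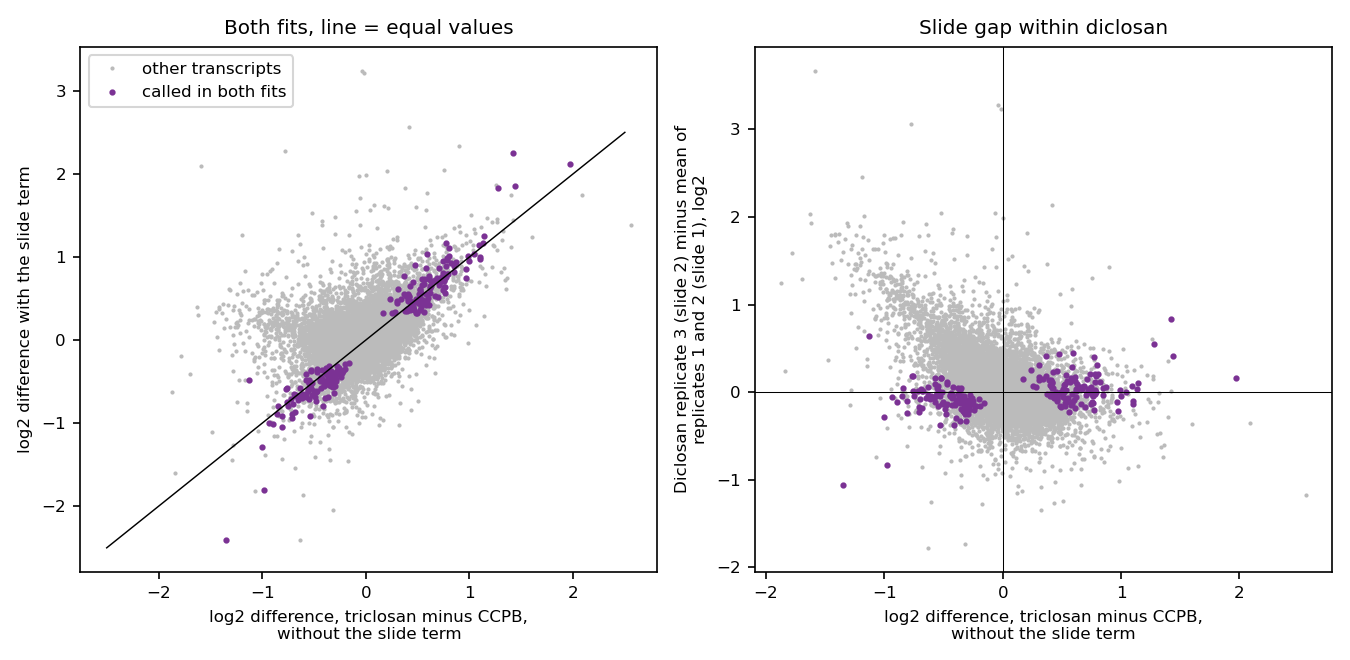
Left, log2 difference (triclosan minus CCPB) of each transcript without the slide term on the x axis and with it on the y axis, with the line of equal values. Right, the same difference against the slide gap within diclosan in log2 units; the grey cloud of all transcripts slopes downward, and the 232 transcripts called by both fits (purple) include some with large slide gaps, such as Pclaf (0.83).

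Genes of DNA replication and mitosis were higher with triclosan than with CCPB. Of 39 listed cell cycle genes, 35 passed the filter on dim probes, 25 were called higher and 0 lower, and the median difference was 0.53 against -0.0031 over all transcripts. The slide term left 11 called higher and 0 lower, with a median of 0.44. Those 11 calls fell to 0 without diclosan replicate 2, to 4 without diclosan replicate 1 or triclosan replicate 2 or 3, and to 5 without CCPB replicate 2, and stood between 7 and 9 without any other 1 array. For 30 of the 35 members every triclosan array lay above every CCPB array, where 20.2% of all transcripts did so. Against DMSO, whose arrays both comparisons share, the list median was -0.07 for triclosan, on the same slide, and -0.57 for CCPB, on the other.

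Among replication genes, Rrm2, the regulated subunit of the ribonucleotide reductase that makes DNA precursors, stood at 1.92, 2.02 and 2.04 with triclosan and at 0.99, 0.71 and 0.97 with CCPB. The 2 groups were about 1 log2 unit apart on every array, and the DMSO arrays (2.15, 2.12 and 2.16) sat just above the triclosan arrays. The difference was 1.10 (95% interval 0.92 to 1.29, 2.15-fold, limma adjusted p = 0.000123), and 1.00 with the slide term (0.67 to 1.34, limma adjusted p = 0.027). Cdc45, part of the helicase that opens DNA at replication forks, read 0.85, 0.90 and 0.95 with triclosan and -0.05, -0.06 and -0.10 with CCPB. Its arrays hardly varied within a group, and it differed by 0.97 (0.84 to 1.10, limma adjusted p = 5.17e-05; slide term 0.85, limma adjusted p = 0.0157). Mcm3, a subunit of the same helicase, read 2.04, 2.01 and 2.05 against 1.39, 1.44 and 1.46 and differed by 0.60 (0.52 to 0.68; slide term 0.51, limma adjusted p = 0.0147). A second probe for Mcm3 differed by 0.23 and was not called. Mcm4, another helicase subunit, differed by 0.52 and by 0.60 with the slide term, called in both fits.

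Genes that drive entry into S phase moved with them. E2f1, a transcription factor that switches on replication genes, read 0.13, 0.18 and 0.16 with triclosan and -0.54, -0.61 and -0.64 with CCPB, a difference of 0.75 (0.61 to 0.89; slide term 0.64, limma adjusted p = 0.0382). Cyclin E2 (Ccne2), which activates the kinase that starts S phase, read -0.83, -0.70 and -0.74 against -1.51, -1.61 and -1.49 and differed by 0.78 (slide term 0.80, limma adjusted p = 0.0212). Pclaf, a factor that binds the replication clamp, had the largest difference among named genes called by both fits, at 1.42 (0.93 to 1.90, 2.67-fold, limma adjusted p = 0.00274). Its value with the slide term was 2.25 (limma adjusted p = 0.0146), larger because diclosan replicate 3 (-2.05) lay above replicates 1 and 2 (-2.72 and -3.04). Exo1, an exonuclease of DNA repair, differed by 0.97 (slide term 0.75), but a second, dimmer probe for it gave -0.79 and was not called (limma adjusted p = 0.0738), and the mean of its probes differed by 0.09. Traip, a ubiquitin ligase at replication forks, differed by 0.87 (0.73 to 1.02; slide term 0.94).

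Mitotic genes followed the same order. Ttk, a kinase of the spindle checkpoint, stood at -1.93, -1.82 and -1.70 with triclosan and at -2.76, -2.80 and -2.85 with CCPB. It differed by 0.99 (0.84 to 1.14, limma adjusted p = 8.8e-05), and by 1.01 with the slide term (0.72 to 1.30, limma adjusted p = 0.0212). Its slide gap was 0.022. Cdk1, the kinase that drives entry into mitosis, read 0.93, 1.00 and 1.08 against 0.34, 0.13 and 0.25, a difference of 0.76 (0.60 to 0.92; slide term 0.72, limma adjusted p = 0.0445). Its partner cyclin B1 (Ccnb1) differed by 0.74 and by 0.95 with the slide term. Mki67, the gene of the proliferation antigen Ki-67, read 0.21, 0.27 and 0.23 against -0.29, -0.49 and -0.36 and differed by 0.62 (0.51 to 0.73; slide term 0.65, limma adjusted p = 0.0264). Cenpt, a protein of the inner kinetochore, differed by 1.13 (slide term 1.17, limma adjusted p = 0.0119), the outer kinetochore protein Kntc1 by 0.85 (slide term 0.82) and the checkpoint kinase Bub1 by 0.62 (slide term 0.63), all called by both fits. Bub1b, a checkpoint protein, and Ube2c, an enzyme that ubiquitinates cyclins, differed by 0.92 and 0.93 (slide term 0.83 and 0.86) and were called without the slide term only. So were Cdc6, which loads the helicase onto DNA (1.17; slide term 1.47), and Pbk, a mitotic kinase (1.22; slide term 1.42). Pbk was not well above background on any CCPB array and was at least 2.33-fold higher with triclosan. Of the 10 members not called, Cdt1, a replication licensing factor, had a difference of -0.68 with overlapping groups.

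**Figure D2:**
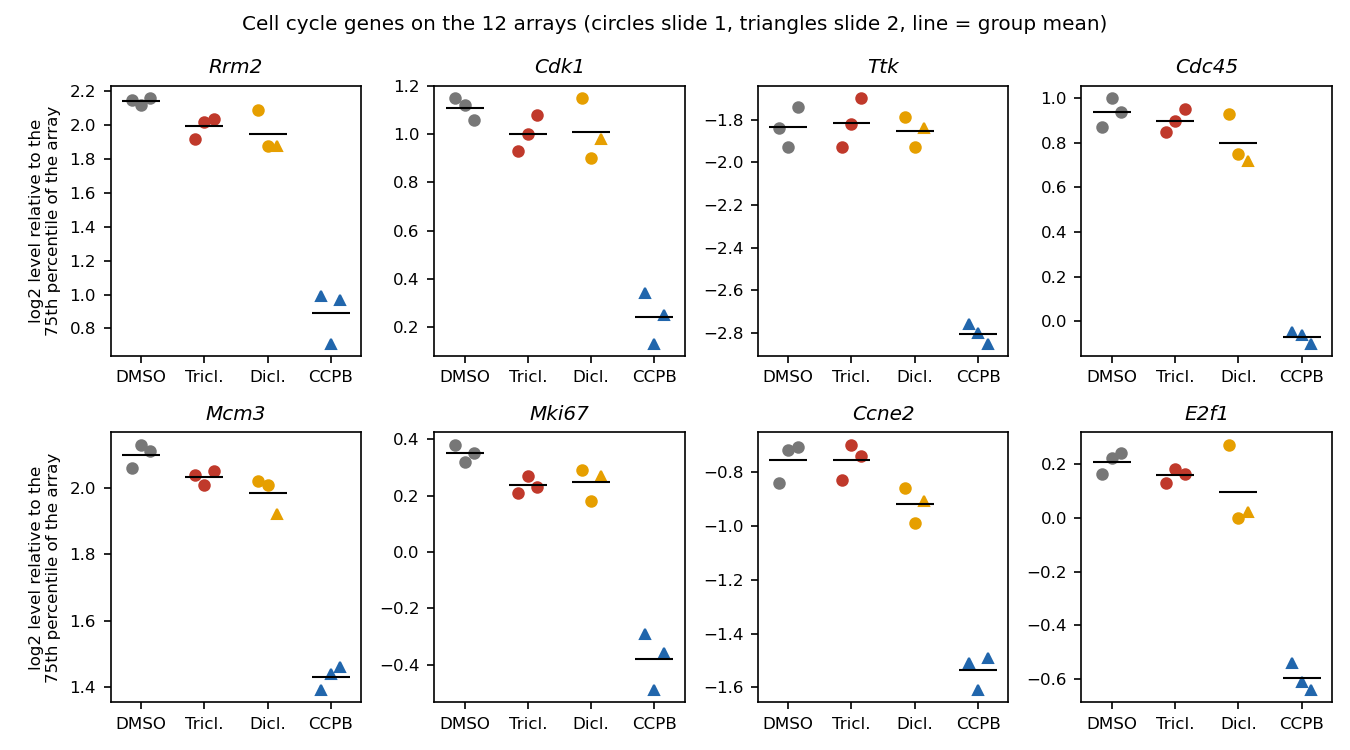
Log2 level of 8 cell cycle genes on each of the 12 arrays, relative to the 75th percentile of the array, with a line at each group mean of 3 arrays; each panel has its own y axis. The CCPB arrays lie below all other arrays in every panel, and diclosan replicate 3, the triangle among the diclosan arrays, lies with the other diclosan arrays and not with CCPB. All 8 genes shown were called by both fits, and a call with the slide term depends on where that array lies.

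The promoters of cell cycle genes are known for a few short elements, and 2 that moved are shown because they hold several of them close together. Capitals mark CCAAT boxes (CCAAT), cell cycle homology regions (CHR, TTTGAA or TTCGAA) and E2F sites (TTTGGCGC, TTTCGCGC, TTTCCCGC or TTTGCCGC), all searched on both strands. The sequences are RefSeq promoter sequence of build GRCr8, read 5′ to 3′ on the strand of the gene. Cdk1 lies at chr20:19265071-19265292 on the plus strand, the 222 bases before the gene's start, and Mki67 at chr1:199952671-199952794 on the minus strand, from 201 to 78 bases before its start.
Cdk1: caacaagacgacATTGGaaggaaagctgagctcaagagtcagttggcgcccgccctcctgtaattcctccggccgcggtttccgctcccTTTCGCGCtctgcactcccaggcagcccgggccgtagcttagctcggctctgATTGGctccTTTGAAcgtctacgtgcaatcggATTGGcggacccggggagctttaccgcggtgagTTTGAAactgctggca
Mki67: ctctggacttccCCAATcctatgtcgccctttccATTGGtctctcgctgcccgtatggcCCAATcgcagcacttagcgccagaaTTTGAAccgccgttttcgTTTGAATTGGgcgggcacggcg
In Mki67 the last CHR and the last CCAAT box, on the opposite strand, overlap. In the 250 bases before the start, a CHR was found in 10 of the 26 tested cell cycle genes with a promoter in the table (17.4% of all 33469 promoters), a CCAAT box in 18 (34.0% of all) and an E2F site in 4 (1.73% of all). Of the 10 genes with a CHR, 7 were called higher with triclosan, as were 14 of the 18 with a CCAAT box, beside 25 of 35 (71.4%) in the whole list. A match of letters describes the window and does not show that a factor binds there.

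Markers of other liver cells were read beside the cell cycle genes, since cells other than hepatocytes in such cultures can also divide. Of 17 stellate cell and fibroblast markers 12 passed the filter, and their summed linear level, in units of the 75th percentile of the array, was 27 to 27.9 with triclosan and 21.8 to 23.5 with CCPB (29.7 to 31.5 with DMSO). Tagln and Timp1 were called higher with triclosan and Acta2 lower, 25% called against 20.5% of all transcripts. The list median was 0.055, and -0.097 with the slide term, where limma called 0 members (2 at an unadjusted p under 0.05). Tagln, an actin-binding protein of contractile cells, differed by 0.59 (slide term 0.47) and Acta2, smooth muscle actin, by -0.42 (slide term -0.29). The defining markers Pdgfrb, Lrat, Lum, Dcn and Ngfr did not pass the filter on dim probes. Their part in the cell cycle difference was not tested. On bulk RNA, fewer cells of a type and less RNA per cell cannot be told apart.

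Other genes of varied function were also higher with triclosan. Plscr2, of the phospholipid scramblase family, stood at -2.73, -2.50 and -2.42 against -3.50, -3.92 and -3.65 and differed by 1.14 (0.89 to 1.39; slide term 1.25, limma adjusted p = 0.0333). Rassf9, a protein with a Ras association domain, read -2.71, -2.52 and -2.39 against -3.54, -3.56 and -3.78 and differed by 1.09 (slide term 1.15, limma adjusted p = 0.0244). Both genes lay highest on the DMSO arrays, at -2.17 to -2.37 for Plscr2 and -1.94 to -2.03 for Rassf9. Nes, an intermediate filament protein, differed by 1.10 (0.87 to 1.33, limma adjusted p = 0.000271) and by 0.89 with the slide term (limma adjusted p = 0.0547). Further genes called without the slide term only were Cep112, a centrosomal protein (1.30; slide term 0.82), Ltbp1, which stores the growth factor TGF-beta in the matrix (1.16; slide term 0.65), and the tetraspanin Tspan11, at least 2.35-fold higher with triclosan.

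Cyp26b1, which breaks down retinoic acid, read -4.53, -4.07 and -4.36 with triclosan and was not well above background on any CCPB array (-5.95, -6.46 and -6.81). Its level was therefore at least 2.85-fold higher with triclosan, as the triclosan mean against a CCPB mean in which each array counted at no less than the lowest signal above background on that array. The measured difference was 2.09 (1.28 to 2.89, limma adjusted p = 0.00473), and 1.74 with the slide term (limma adjusted p = 0.267). Aldh1a1, an aldehyde dehydrogenase that makes retinoic acid, read 6.03, 5.98 and 5.97 against 5.53, 5.58 and 5.68 and differed by 0.40 (0.31 to 0.49; slide term 0.37, limma adjusted p = 0.0493). It was the 1 member of the CAR and PXR list that was called higher with triclosan.

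Among targets of AhR, the receptor known for its response to planar aromatic compounds, 2 of 7 tested members were called higher with triclosan and 0 lower, with a median difference of 0.076. The share called was 28.6%, against 20.5% of all transcripts. Cyp1a1, its best known target, read 1.93, 2.19 and 2.12 with triclosan and 1.48, 1.42 and 1.59 with CCPB. The groups did not overlap, and the DMSO arrays (1.80, 1.72 and 1.90) lay between them. The difference was 0.58 (0.37 to 0.80, 1.5-fold, limma adjusted p = 0.00421), and 0.87 with the slide term (0.54 to 1.20, limma adjusted p = 0.0335). Side by side, triclosan minus DMSO was 0.27 (limma adjusted p = 0.338) and CCPB minus DMSO -0.31 (limma adjusted p = 0.0403). Aldh3a1, an aldehyde dehydrogenase under AhR control, was well above background on 2 triclosan arrays and no CCPB array, and was at least 1.99-fold higher with triclosan (measured difference 0.99, limma adjusted p = 0.00516; slide term 0.96, limma adjusted p = 0.212). Nqo1, a quinone reductase, differed by 0.096 (0.0094 to 0.18; slide term 0.16) and Ugt1a6, a glucuronosyltransferase, by -0.076 (slide term -0.025), neither called.

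Genes of protein folding in the endoplasmic reticulum were higher with triclosan in the fit without the slide term. Of 22 tested members 11 were called higher and 1 lower, with a median difference of 0.17, and 7 were higher without CCPB replicate 1. Under the slide term limma called 0 (4 at an unadjusted p under 0.05, against 18 without the term) and the median was 0.057, so slide and compound cannot be told apart for this list. Against DMSO its median was 0.042 for triclosan and -0.11 for CCPB. Derl3, which helps move misfolded proteins out of the reticulum, read 3.16, 2.96 and 2.93 with triclosan and 2.32, 2.42 and 2.29 with CCPB, and differed by 0.67 (0.45 to 0.90, limma adjusted p = 0.00259; slide term 0.42, limma adjusted p = 0.272). Creld2, a folding factor, read 4.14, 4.00 and 4.02 against 3.55, 3.57 and 3.47 and differed by 0.53 (0.38 to 0.68; slide term 0.36, limma adjusted p = 0.153). Diclosan replicate 3, on the slide of CCPB, stood at 4.00 for Creld2, below replicates 1 and 2 (4.25 and 4.06). For Derl3 it stood at 2.89, also below those replicates (3.27 and 3.02). The slide gap ran toward the CCPB arrays, at -0.16 for Creld2 and -0.26 for Derl3, with a list median of -0.088. Sel1l, an adaptor of the degradation complex, differed by 0.48 (slide term 0.35), Sdf2l1 by 0.40 (slide term 0.24), and the chaperones Hsp90b1 and Hspa5 by 0.42 and 0.21 (slide term 0.23 and 0.14). A second probe for Sel1l differed by 0.14 and was not called.

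The endoplasmic reticulum stress element (ERSE, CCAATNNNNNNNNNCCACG, both strands) was found in 8 of 20 promoters of tested members and in 22 of all 33469 promoters (0.0657%). Of the 8 members with the element 5 were called higher, beside 11 of 22 (50%) in the whole list. The stretches below, shown because they hold that element in the 3 largest differences of genes that carry it, have it in capitals and come from RefSeq on GRCr8, 5′ to 3′ on the strand of the gene. Derl3 is at chr20:12766589-12766631 (minus strand), Creld2 at chr7:121789227-121789269 (plus strand) and Hsp90b1 at chr7:23012335-23012481 (minus strand, 2 elements).
Derl3: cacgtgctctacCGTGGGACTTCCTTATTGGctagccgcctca
Creld2: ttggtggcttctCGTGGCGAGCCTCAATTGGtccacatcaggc
Hsp90b1: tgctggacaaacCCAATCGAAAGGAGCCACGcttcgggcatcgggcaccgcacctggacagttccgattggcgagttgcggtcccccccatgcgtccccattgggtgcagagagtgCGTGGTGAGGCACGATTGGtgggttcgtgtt
The element holds a CCAAT box by its construction.

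The integrated stress response, which adjusts translation and amino acid supply under stress, had 9 of 31 tested members called higher and 1 lower with triclosan. The share called was 32.3%, against 20.5% of all transcripts. By limma with the slide term 0 were called, with 8 at an unadjusted p under 0.05. Leaving out 1 array gave 5 to 12 higher calls, with 5 without triclosan replicate 2 or CCPB replicate 3. Ddit4, an inhibitor of the growth kinase mTORC1, read 0.09, 0.26 and 0.13 with triclosan and -0.49, -0.44 and -0.49 with CCPB. It differed by 0.63 (0.50 to 0.77, limma adjusted p = 0.000272) and by 0.47 with the slide term (limma adjusted p = 0.0528). Ddit3, the transcription factor CHOP, differed by 0.40 (slide term 0.44) and the secreted factor Fgf21 by 0.30 (slide term 0.27), both called without the slide term only. Psat1, of serine synthesis, differed by 0.24 (slide term 0.18) and Cbs, of cysteine synthesis and the 1 member called lower, by -0.32 (slide term -0.27). Among 20 tested p53 targets 6 were higher and 2 lower, a share of 40% called. The higher ones included Phlda3 (0.51, slide term 0.24), the death receptor Fas (0.41, slide term 0.11, a second probe at 0.04, not called) and the cell death gene Bbc3 (0.33, slide term 0.25). Limma called 0 of the 20 with the slide term (7 at an unadjusted p under 0.05). Cytosolic heat shock genes gave 0 calls of 19 by limma in either fit, with 5 and 3 at an unadjusted p under 0.05.

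Drug-metabolising genes under CAR and PXR were lower with triclosan, that is, higher with CCPB. Of 29 tested members 14 were called lower and 1 higher, with a median of -0.19, and for 20 of them every CCPB array lay above every triclosan array (23.1% of all transcripts). The slide term left 4 lower and 1 higher with a median of -0.21. Those 4 calls ranged from 1 to 6 when 1 array was left out, with 1 without diclosan replicate 1 or 2, triclosan replicate 2 or 3, or CCPB replicate 2. The list median against DMSO was 0.054 for triclosan and 0.26 for CCPB.

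Cyp2b2, a P450 enzyme known as the classical target of CAR, had the largest difference of the list. It read -0.22, -0.77 and -0.68 with triclosan and 0.79, 0.78 and 0.64 with CCPB, with the DMSO arrays at -0.97, -1.04 and -1.28. The groups did not overlap, and triclosan replicate 1 stood apart from the other 2 triclosan arrays. The difference was -1.29 (-1.66 to -0.93, 2.45-fold, limma adjusted p = 0.00108) and -1.44 with the slide term (-2.13 to -0.74, limma adjusted p = 0.0634). Cyp2c6v1, a P450 enzyme induced by phenobarbital-like compounds, read 2.61, 2.44 and 2.51 against 3.24, 3.15 and 3.06 and differed by -0.64 (-0.77 to -0.50; slide term -0.57, limma adjusted p = 0.0465). Among the Cyp3a enzymes, targets of PXR, Cyp3a62 differed by -0.53, Cyp3a23-3a1 by -0.39 and Cyp3a18 by -0.38, called without the slide term only (slide term -0.42, -0.47 and -0.37). Cyp3a2 and Cyp3a9 differed by 0.048 and 0.16 (slide term 0.11 and 0.35), neither called. Cyp2c7, Cyp2c22 and Cyp2c24 differed by -0.37, -0.39 and -0.37, also called without the slide term only (slide term -0.30, -0.31 and -0.41). Cyp2c23 went the other way, at 0.15 (slide term 0.086), called higher without the slide term only. Cyp2c11, Cyp2c13 and Cyp2c12 differed by 0.12, 0.15 and -0.12 and were not called. Transcripts of close relatives within these P450 families can bind each other's probes, so the values of single members are uncertain.

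Of 18 tested genes of heme synthesis and of electron supply to P450 enzymes 5 were called lower with triclosan and 1 higher, with a median of -0.032 (slide term -0.056, 2 called). The share called without the slide term was 33.3%, against 20.5% of all transcripts. Without triclosan replicate 3 the lower calls were 3. Por, the reductase that passes electrons to P450 enzymes, read 3.82, 3.76 and 3.72 with triclosan and 4.10, 4.15 and 4.01 with CCPB, and differed by -0.32 (-0.47 to -0.16, limma adjusted p = 0.0138). Its value under the slide term was -0.57 (-0.76 to -0.38, limma adjusted p = 0.027), since diclosan replicate 3 (3.58) lay below the other diclosan arrays. Alas1, the first enzyme of heme synthesis, read 5.64, 5.63 and 5.62 against 5.96, 6.03 and 5.95 and differed by -0.35 (-0.44 to -0.26; slide term -0.45, limma adjusted p = 0.0244). Hmox1, which degrades heme and belongs to the same list, differed by -0.24 (slide term -0.26) and was called without the slide term only. The receptor CAR itself (Nr1i3) read -0.16, -0.33 and -0.36 against 0.20, 0.30 and 0.31, a difference of -0.55 (limma adjusted p = 0.00271; slide term -0.39, limma adjusted p = 0.247). PXR (Nr1i2) differed by -0.23 (slide term -0.35, limma adjusted p = 0.0547), and Cited4, a transcriptional coregulator, by -0.33 (slide term -0.39). Of 31 tested nuclear receptors and partners 7 were lower and 2 higher, 29% called against 20.5% of all transcripts, with a median of -0.0025. The 2 higher ones were Rxrb at 0.24 (slide term -0.024) and Rara at 0.20 (slide term 0.047). Nr1h3, the oxysterol receptor LXRalpha, was among the lower ones at -0.23 (slide term -0.21). Limma called 0 of the 31 with the slide term, with 8 at an unadjusted p under 0.05.

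**Figure D3:**
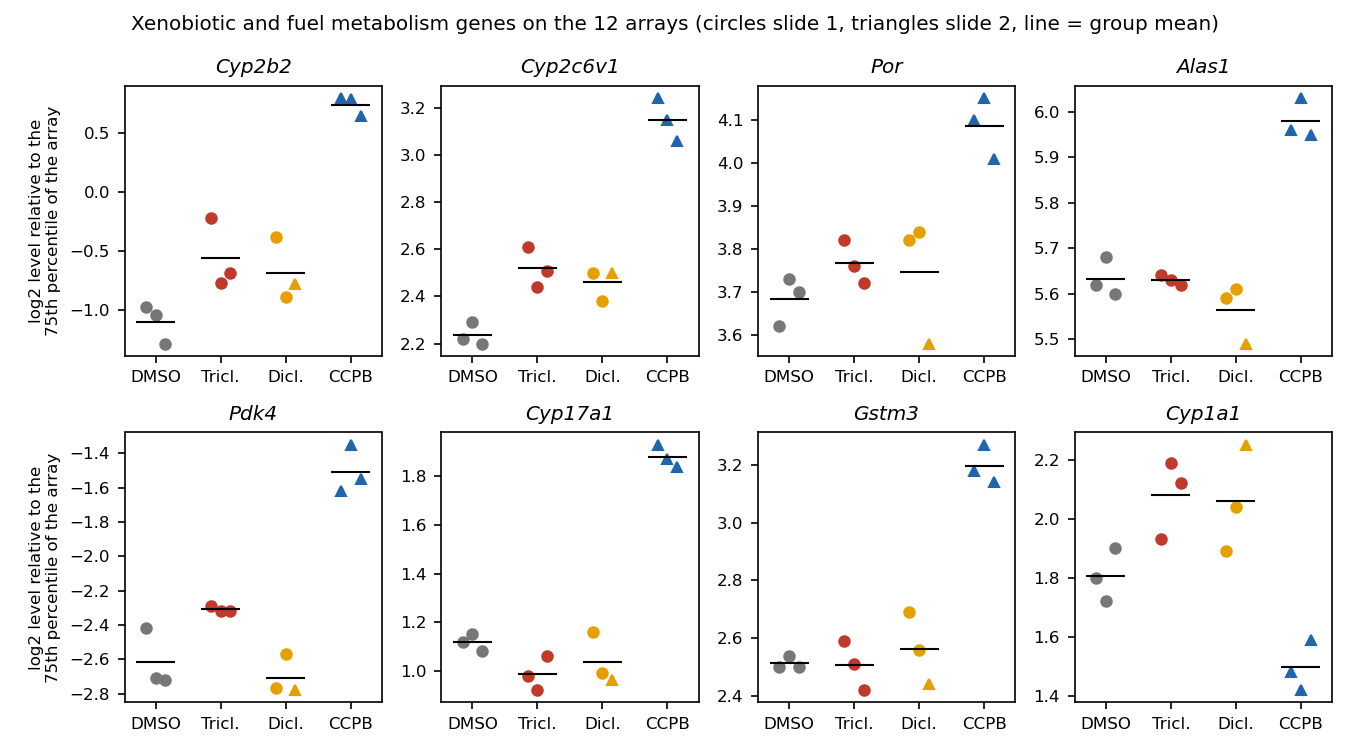
Log2 level of 8 genes of xenobiotic and fuel metabolism on each of the 12 arrays, relative to the 75th percentile of the array, with a line at each group mean of 3 arrays; each panel has its own y axis. The CCPB arrays lie above all others in 7 panels and below all others for Cyp1a1, and diclosan replicate 3, the triangle in that group, lies near the other diclosan arrays or further from CCPB. All genes shown except Cyp2b2 were called by both fits, and a call with the slide term depends on where that array lies.

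Conjugating enzymes were called lower with triclosan in each family, and 0 of them higher. Among glutathione transferases 10 of 23 were lower, among glucuronosyltransferases and their cofactor supply 8 of 14, and among sulfotransferases and theirs 5 of 12, and with the slide term 1, 0 and 2. Leaving out 1 array gave 7 to 11, 4 to 9 and 3 to 6 lower calls, with 4 for the glucuronosyltransferases without CCPB replicate 1, 5 without triclosan replicate 1 or 2 or CCPB replicate 2, and 3 for the sulfotransferases without CCPB replicate 3. Gstm3, a glutathione transferase, read 2.59, 2.51 and 2.42 with triclosan and 3.18, 3.27 and 3.14 with CCPB and differed by -0.69 (-0.83 to -0.54; slide term -0.87, limma adjusted p = 0.0154). A second probe for Gstm3 differed by -0.87. Sult2a6, a sulfotransferase of hydroxysteroids, read 0.92, 0.74 and 0.84 against 1.42, 1.50 and 1.31 and differed by -0.57 (slide term -0.68, limma adjusted p = 0.0271). Sult2b1 differed by -0.56 (slide term -0.61, limma adjusted p = 0.04). Gsta3 differed by -0.29 (slide term -0.25), and Ugt2b10 and Ugt2b1 by -0.34 and -0.24 (slide term -0.38 and -0.21), each called without the slide term only. Other members called without the slide term only shrank further with it. Ugt2a1 went from -0.58 to -0.11, Ugt2b from -0.38 to -0.098, Sult1c2 from -0.56 to -0.15 and Gstk1 from -0.295 to -0.06. The medians of the 3 lists, in the order above, were -0.11, -0.26 and -0.22. With the slide term they were -0.11, -0.14 and -0.12. Cyp17a1, a P450 enzyme of steroid synthesis, read 0.98, 0.92 and 1.06 against 1.93, 1.87 and 1.84. Its difference was -0.90 (-1.03 to -0.77, 1.86-fold, limma adjusted p = 6.73e-05), with -1.01 under the slide term (limma adjusted p = 0.0119).

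Fatty acid oxidation genes were lower with triclosan than with CCPB. Of 42 tested targets of PPARalpha, the fatty acid sensing receptor of the liver, and genes of fatty acid oxidation, 16 were lower and 2 higher, with a median of -0.12, and 4 were lower with the slide term (median -0.19). Pdk4, a kinase that shuts pyruvate out of the mitochondria's oxidation and favours fat, read -2.29, -2.32 and -2.32 with triclosan and -1.62, -1.35 and -1.55 with CCPB. It differed by -0.81 (-1.02 to -0.59, 1.75-fold, limma adjusted p = 0.000822), and by -0.91 with the slide term (limma adjusted p = 0.047). Acot4, an acyl-CoA thioesterase, read 2.71, 2.72 and 2.75 against 3.18, 3.16 and 3.15 and differed by -0.44 (-0.50 to -0.37; slide term -0.45, limma adjusted p = 0.0157). Acot5, of the same family, differed by -0.81 (slide term -1.05, limma adjusted p = 0.0445) and Cpt2, which takes fatty acids into the mitochondrial matrix, by -0.33 (slide term -0.38, limma adjusted p = 0.0312). Cpt1a, the entry step of that transport, differed by -0.38 (slide term -0.32), its muscle form Cpt1b by -0.41 (slide term -0.36) and the fatty acid hydroxylase Cyp4a1 by -0.27 (slide term -0.27), called without the slide term only. Several of these thioesterases have near-identical relatives, so single members are uncertain.

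Transport of bile lipids ran with CCPB too. Of 23 tested genes of bile acid synthesis and transport 7 were lower with triclosan and 0 higher, with a median of -0.16, and 2 with the slide term. The share called without the slide term was 30.4%, against 20.5% of all transcripts. Abcb11, the bile salt export pump, read 5.01, 4.93 and 4.99 with triclosan and 5.41, 5.39 and 5.39 with CCPB and differed by -0.42 (-0.50 to -0.35; slide term -0.37, limma adjusted p = 0.0281). Abcb4, which moves phospholipid into bile, read -0.12, -0.21 and -0.15 against 0.27, 0.27 and 0.24 and differed by -0.43 (slide term -0.50, limma adjusted p = 0.0244). Slc10a1, the uptake carrier of bile salts, differed by -0.50 (slide term -0.38, limma adjusted p = 0.0955), Acox2, an oxidase of bile acid synthesis, by -0.58 (slide term -0.44) and the organic anion carrier Slco1a4 by -0.32 (slide term -0.59).

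Lipid synthesis genes were called lower with triclosan too. Of 25 cholesterol synthesis genes 10 were lower with triclosan and 0 higher (median -0.10), and of 30 genes of fatty acid and triglyceride synthesis 12 were lower and 0 higher (median -0.13), with 1 and 0 called with the slide term. Lss, which closes the sterol rings, read 3.12, 3.07 and 3.06 against 3.44, 3.43 and 3.46 and differed by -0.36 (-0.43 to -0.30; slide term -0.34, limma adjusted p = 0.027). Side by side, Lss had -0.12 for triclosan minus DMSO and 0.24 for CCPB minus DMSO. Acat2, an early thiolase of the pathway, differed by -0.31 (slide term -0.24) and Hmgcs1, of the next step, by -0.14 (slide term -0.15), called without the slide term only. In triglyceride storage, the lipid droplet protein Plin2 differed by -0.32 (slide term -0.21) and Dgat2, the last step of triglyceride synthesis, by -0.21 (slide term -0.17). The 12 lower calls of fatty acid and triglyceride synthesis fell to 6 without CCPB replicate 2 and to 7 without triclosan replicate 2 or 3 or CCPB replicate 1 or 3.

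Among 42 tested hepatocyte genes 14 were lower with triclosan and 2 higher, with a median of -0.089, and their summed linear level was 5950 to 6190 with triclosan and 6390 to 6530 with CCPB. Apob, the core protein of very low density lipoprotein, read 5.92, 5.95 and 5.97 against 6.35, 6.27 and 6.36 and differed by -0.38 (slide term -0.41, limma adjusted p = 0.0312), the 1 member called with the slide term. Arg1, arginase of the urea cycle, differed by -0.39 (slide term -0.43, limma adjusted p = 0.0585) and Asl, of the same cycle, by -0.29 (slide term -0.23). The 14 lower calls fell to 8 without triclosan replicate 2. Of 29 acute phase and inflammation genes 6 were lower and 1 higher, a share of 24.1% called against 20.5% of all transcripts. Differences in the list ran from -0.64, for the chemokine Cxcl1 (slide term -0.39), to 1.31 on the triclosan side. The chemokine Cxcl2 differed by -0.55 (slide term -0.34). The acute phase proteins Lbp and Saa4 differed by -0.21 and -0.27 (slide term -0.21 and -0.29). Without CCPB replicate 2 the lower calls were 3, and limma called 0 of the 29 with the slide term (5 at an unadjusted p under 0.05). Of 24 immediate early genes, which respond first to a stimulus, 3 were lower and 2 higher, a share of 20.8% called against 20.5% of all transcripts. Called members included Zfp36 at -0.84 (slide term -0.32), Egr1 at -0.51 (slide term -0.89) and Klf15, a regulator of gluconeogenesis, at 0.25 (slide term 0.26).

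Of 29 targets of NRF2, the sensor of oxidative stress, 8 were lower and 2 higher with a median of -0.028, a share of 34.5% called. The calls included the glutathione conjugate pump Abcc2 (-0.19, slide term -0.14), Gsta2 (-0.29, slide term -0.11) and the cystine carrier Slc7a11 (0.25, slide term 0.26). A second probe for Slc7a11 differed by 0.0004 and was not called. Without triclosan replicate 3 the lower calls of this list were 4, and without triclosan replicate 2 or CCPB replicate 3 they were 5. Of 37 genes of glycolysis, gluconeogenesis and the HIF1 response 7 were lower and 2 higher, a share of 24.3% called against 20.5% of all transcripts. The largest difference of this list was 1.02, on the triclosan side. Pfkfb1, which sets the rate of hepatic glycolysis, was among the lower ones at -0.35 (slide term -0.18). The lower calls were 4 without triclosan replicate 1 or 2 or any 1 CCPB array. Of 40 oxidative phosphorylation genes 4 were lower and 0 higher (10% called), and 2 were lower without triclosan replicate 2 or 3 or CCPB replicate 2 or 3. Of 14 clock genes 1 was lower, the transcription factor Tef at -0.20 (slide term -0.25), and 1 higher (14.3% called). Limma called 0 members of these 4 lists with the slide term, with 7, 6, 1 and 2 at an unadjusted p under 0.05.

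**Figure D4:**
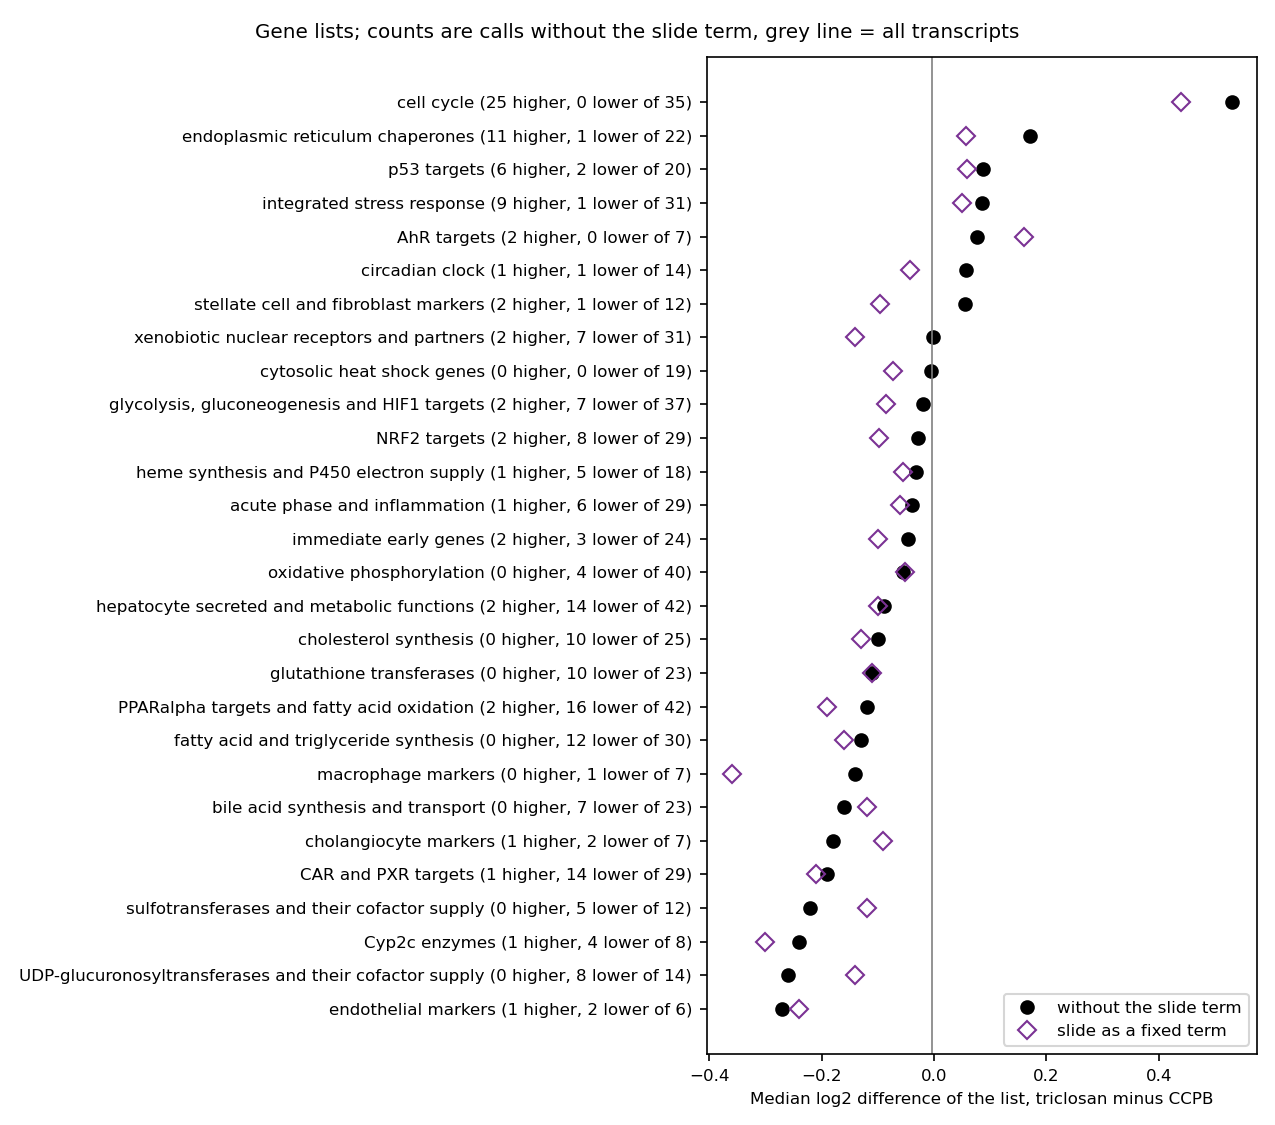
Median log2 difference (triclosan minus CCPB, x axis) of each gene list without the slide term (filled circles) and with it (open diamonds), with the calls without the slide term in brackets and a grey line at the median of all transcripts, -0.0031. Cell cycle genes stand farthest to the right in both fits, and the lists of CAR and PXR targets, conjugating enzymes, lipid handling and bile transport lie to the left of the line in both.

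Calls that the lists kept under the slide term fell without diclosan replicate 1 or 2, and also without some triclosan or CCPB arrays. Without diclosan replicate 1, 4 cell cycle genes and Gstm3, which belongs to the lists of CAR and PXR targets and of glutathione transferases, were called among the listed genes. Without diclosan replicate 2, Gstm3 alone was called.

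Of the remaining markers of other cells, 1 of 7 tested macrophage markers was called (14.3%, against 20.5% of all transcripts). It was Cd14, at -0.27 and at -0.36 with the slide term (limma adjusted p = 0.0472). The summed level of the macrophage list was 11.3 to 11.9 with triclosan and 13 to 13.5 with CCPB. Cd163, Marco, Adgre1, Csf1r and Ptprc did not pass the filter. For 6 endothelial markers the sums were 8 to 8.62 and 9.86 to 10.3, and for 7 cholangiocyte markers 28.1 to 29.1 and 26.2 to 26.8, with 1 member called higher and 2 lower in each list without the slide term and 0 with it by limma (1 and 2 at an unadjusted p under 0.05). Their medians were -0.27 and -0.18. Whether other cells had a part in any list above was not tested.

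Outside the lists, several genes of varied function were among the largest differences on the CCPB side called by both fits. Pcp4l1, a small calmodulin-binding protein, read 1.16, 1.06 and 0.93 with triclosan and 2.26, 1.96 and 1.95 with CCPB and differed by -1.0 (-1.24 to -0.77; slide term -1.29, limma adjusted p = 0.0227). Zap70, a tyrosine kinase known from T cells, read -1.95, -1.91 and -1.98 against -0.94, -0.98 and -1.12 and differed by -0.94 (slide term -1.0, limma adjusted p = 0.027). Colq, the collagen tail of acetylcholinesterase, differed by -0.98 (slide term -1.81, limma adjusted p = 0.00271) but was well above background on 1 of 3 triclosan arrays. LOC108352174, an uncharacterised gene, differed by -1.13, and by -0.48 with the slide term (limma adjusted p = 0.0244), as diclosan replicate 3 (1.87) lay 0.64 above the other diclosan arrays. Sfnl1 (-0.85; slide term -0.89), Depp1 (-0.77; slide term -0.58), a gene induced by fasting, and Lrmda (-0.76; slide term -0.58) were also among the 10 largest. Pbp2, of the phosphatidylethanolamine-binding proteins, was not well above background on any triclosan array and was at least 2.06-fold lower with triclosan, called without the slide term only (limma adjusted p = 0.0217).

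Set side by side against the shared DMSO arrays were the 10 largest differences each way called by both fits. Without the slide term, their triclosan values lay between -0.54 (Rassf9) and 0.36 (Acot5). Their CCPB values lay between -1.63 (Rassf9) and 1.34 (Pcp4l1). Rrm2, for example, had -0.15 for triclosan minus DMSO (-0.33 to 0.03) and -1.25 for CCPB minus DMSO (-1.44 to -1.07). Cyp17a1 had -0.14 (-0.26 to -0.01) and 0.76 (0.63 to 0.89). With the slide term CCPB minus DMSO was -2.11 for Pclaf and 2.1 for Colq. The triclosan values come from arrays of 1 slide and the CCPB values from arrays of different slides, and the 2 comparisons share the DMSO arrays. Over all transcripts 0.0638% were called for triclosan minus DMSO and 28.3% for CCPB minus DMSO.

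**Figure D5:**
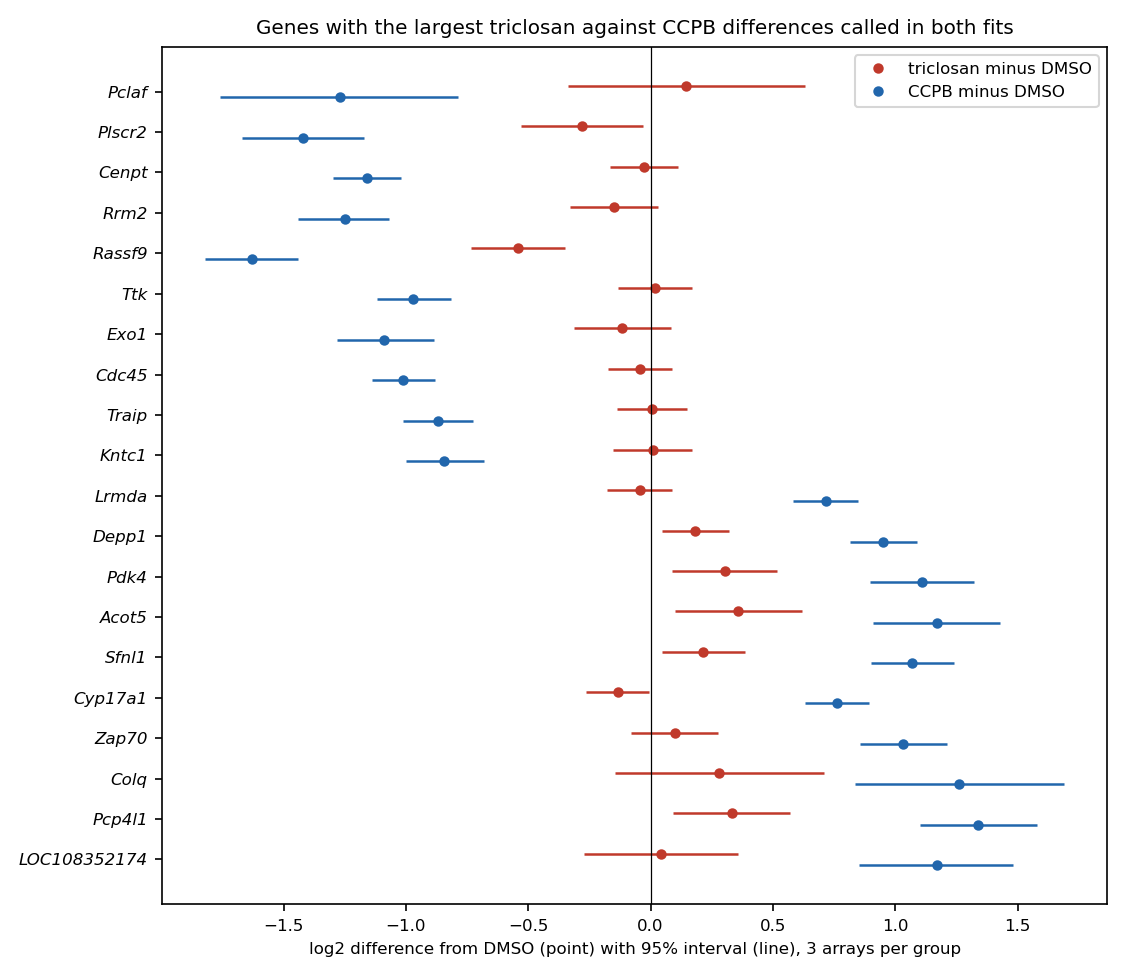
Log2 difference from DMSO (x axis, points with 95% intervals, 3 arrays per group) of triclosan (red) and CCPB (blue) for the 20 genes with the largest triclosan against CCPB differences called by both fits. Without the slide term, as drawn, the triclosan points lie between -0.54 and 0.36 and the CCPB points between -1.63 and 1.34.

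For several liver genes no difference between the compounds was detected. Nr0b2, a corepressor that restrains bile acid synthesis, read 0.24, -0.07 and 0.14 with triclosan and 0.35, 0.31 and 0.10 with CCPB, far above its DMSO arrays (-2.21, -1.76 and -2.01). The groups overlapped, and the difference was -0.15 with an interval of -0.44 to 0.13 (limma adjusted p = 0.41; slide term -0.40, interval -0.90 to 0.09). Gdf15, a stress-responsive cytokine, read 1.14, 0.99 and 0.90 against 0.99, 1.23 and 1.07 and differed by -0.086 (-0.30 to 0.12; slide term -0.047). Cdkn1a, the cell cycle inhibitor p21, read 4.60, 4.58 and 4.54 against 4.61, 4.70 and 4.62 and differed by -0.068 (-0.15 to 0.02; slide term -0.14), although a second probe for it gave -0.25 and was called. Alb differed by -0.024 (-0.10 to 0.06; slide term -0.051), with a sign that turned under quantile normalization and when probes of a gene were averaged. These intervals bound the difference in these cells and do not show that the compounds act alike.

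Slc31a1, a copper uptake carrier, shows what the slide term can change. It read -2.16, -1.95 and -1.95 with triclosan and -0.43, -0.80 and -0.83 with CCPB, and differed by -1.33 (-2.20 to -0.47, 2.52-fold, limma adjusted p = 0.0374). Diclosan replicate 3, on the slide of CCPB, read -0.49, while diclosan replicates 1 and 2 read -2.36 and -2.14, a slide gap of 1.75. Under the slide term the difference turned to 0.42 (-0.03 to 0.87, limma adjusted p = 0.373).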

How the data were processed

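Transcripts were measured on 12 one-colour arrays, 3 per group. Per the file headers, the authors made the deposited intensity values with Agilent Feature Extraction 10.7.1.1. These are linear and corrected for background and spatial trend within the array, and arrays are not scaled to each other. A value table deposited by the authors, a linear signal with the 75th percentile of each array near 1, was used as an alternative. Of the spots, 1 to 8 non-uniform ones per array were left out and population outliers kept. Spots of a probe were averaged in log2 and each array's 75th percentile was subtracted. A probe was kept if well above background on all 3 arrays of a group (24268 of 45598). Accessions matched to the RefSeq table of GRCr8, used for names, named 21229 probes and left 24369 unnamed. The brightest kept probe stood for a gene.

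All 12 arrays were fitted by group with limma 3.58.1 in R 4.3.3, with the package data.table at version 1.17.8. Tests were two-sided, p-values were adjusted after Benjamini and Hochberg, and 0.05 was the threshold. The model was fitted again with the slide as a fixed term. Intervals are 95% and unadjusted, and 3 arrays per group limit the precision. The scripts were tested on simulated data. Pass conditions were set only for data without a slide shift, fitted without the slide term. The members, the 28 gene lists and the rule for named genes were chosen with earlier results of these data known. Named genes were the 10 largest differences each way called by both fits, the 6 largest called without the slide term only, up to 4 members of each list with the smallest p, and a fixed set of liver genes; in each of the first 2 groups the arrays did not overlap and the brighter group was above background. Some, and some further list members, are not reported here, and others of the lists are named that were chosen after their values were seen. Cyp2b1 and Cyp7a1 of the fixed set were not tested. The normexp alternative used median signals, as mean signals were not used here. Alternatives covered scaling, background, filter, probes, replicate block and arrays left out. Replicate numbers did not pair samples (correlation of deviations -0.113, -0.102 and 0.0446).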

Additional observations from a re-analysis of the deposited data

How the results depend on the processing

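The count of 4171 called transcripts became 285 with the slide term, 2392 with median centring and 1389 without the filter on dim probes, where 38986 transcripts were tested. It lay between 2094 and 5605 when 1 array was left out. It stayed within 1.5 times with the 6 arrays only (4437), quantile normalization (4291), normexp on the median signals (5089), the value table (4180), the mean of probes (4013), a filter over all 12 arrays (4364), and without population outliers (4176, chosen after seeing the data). With the replicate block 3781 were called, and 12 with the replicate block and the slide; the samples share only a number. With the slide term and 1 array left out the count lay between 24 and 287: 30 and 24 without diclosan replicates 1 and 2, 287, 56 and 64 without triclosan replicates 1 to 3, 86, 38 and 84 without CCPB replicates 1 to 3, and 175, 176 and 143 without DMSO replicates 1 to 3. The settings with the slide term and a triclosan, CCPB or DMSO array left out were chosen after seeing the data.

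Slc31a1 reversed in each setting with the slide term, to 0.417 with all arrays, 0.472 with the replicate block and slide, and 0.308 to 0.546 with 1 array left out (0.308 and 0.527 without diclosan replicates 1 and 2, 0.487, 0.382 and 0.383 without triclosan replicates 1 to 3, and 0.546, 0.359 and 0.347 without CCPB replicates 1 to 3). Gdf15 reversed to 0.119 with the replicate block and slide, and to 0.00881 and 0.0177 with the slide term without triclosan replicate 3 and CCPB replicate 2. Alb reversed to 0.0114 with quantile normalization and 0.00295 with the mean of probes. Of 119 named genes recomputed, no other reversed in these settings. Genes picked by the naming rule but not among these also turned sign with the slide term. Examples are Id3 (-1.62 to 0.302), Cox7c (-0.922 to 0.222) and Abcb1a (-0.393 to 0.326). Over all called transcripts 463 turned sign with that term. The median of the cell cycle list lay between 0.30 and 0.56 in all settings, that of CAR and PXR targets between -0.23 and -0.16, and that of the endoplasmic reticulum list between 0.029 and 0.20. The cause of these shifts was not tested. Dim probes such as Cyp26b1, Aldh3a1 and Colq are limited by their signal over background.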

Other observations

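The genes below, known to be induced by interferon, the cytokine of viral defence, varied widely between arrays of a group. They were singled out after their values were seen and are no fixed list. Isg15, a ubiquitin-like modifier, read 5.64, 3.50 and 3.52 on triclosan replicates 1, 2 and 3 and 2.50, 4.50 and 2.67 on the CCPB replicates. Irf7, the transcription factor that amplifies the interferon signal, read 5.42, 3.33 and 3.27 with triclosan and 2.57, 4.05 and 2.91 with CCPB. Both genes were highest on triclosan replicate 1 and on CCPB replicate 2 within their groups. Ifit3, which binds viral RNA, followed with 1.41, -1.71 and -0.56 against -2.01, -0.97 and -1.80, and Mx1, a GTPase that blocks viruses, with 1.99, 0.44 and 0.66 against 0.06, 0.82 and 0.12. The groups overlapped for all 4 genes, and none was called (limma adjusted p between 0.303 and 0.334). In the other groups DMSO replicate 3 and diclosan replicate 2 held the highest levels of Isg15 (4.85 and 4.65). Triclosan replicate 1 had the highest level of all 12 arrays for each of these 4 genes.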
